A study of Homo sapiens with 10 samples.

Results

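The 10 genes described here belong to the BMP-SMAD circuit: the ID genes ID1, ID2, ID3 and ID4, the SMAD genes SMAD6, SMAD7 and SMAD9, the ligands BMP2 and BMP4, and the decoy receptor BAMBI. They were read from every probe set that the platform annotation gives exactly 1 of these symbols, which was 20 of 41097 single-symbol probe sets and 10 of 19775 genes. The genes were chosen by a reading of earlier results of these same arrays, among them the low ID1 of sorted against unsorted cells, so differences of the members from unsorted cells are given as a description and without a p-value. The contrast of the sorted populations is tested.

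The arrays hold RNA of cultured gastric cancer cells. There were 4 arrays of side population cells, which keep little Hoechst dye because ABC transporters export it, 4 of non-side population cells, which keep the dye, and 2 of unsorted cells. The sorted arrays carry the replicate letters a to d and the unsorted ones a and b. The origin label of all 10 names AGS and MKN 45, which are established lines from gastric carcinomas. The source label names AGS for 8 arrays and no line for side population replicates a and b. Unsorted cells carry no label of a sort, so staining and sorting cannot be told apart from the other differences between sorted and unsorted arrays. Nothing says that replicates came from separate cultures, so p-values measure the spread between these arrays, which may be technical.

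BMP ligands bind paired serine/threonine kinase receptors, which phosphorylate SMAD1, SMAD5 and SMAD9, and these join SMAD4 and enter the nucleus. ID genes are among the best known direct targets of this route, and ID proteins, which lack a DNA-binding domain, capture E proteins such as TCF3, TCF4 and TCF12 and keep them off DNA. SMAD6, SMAD7 and BAMBI are induced by the same signals and damp them. In the stomach, BMP signals take part in the differentiation of the gland epithelium.

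Promoters are shown for ID1, ID2 and ID3, the BMP targets whose values are set side by side in the results, and for BAMBI, a feedback gene of the same route. RefSeq on GRCh38.p14 gives the 250 bases before the start of ID1 at chr20:31605039-31605288 on the plus strand, of ID2 at chr2:8681806-8682055 on the plus strand, of ID3 at chr1:23559502-23559751 on the minus strand and of BAMBI at chr10:28677271-28677520 on the plus strand. Capitals mark the letters GGCGCC, a form bound by SMAD1 and SMAD5, and CAGAC, a form bound by SMAD3 and SMAD4, on either strand.
ID1: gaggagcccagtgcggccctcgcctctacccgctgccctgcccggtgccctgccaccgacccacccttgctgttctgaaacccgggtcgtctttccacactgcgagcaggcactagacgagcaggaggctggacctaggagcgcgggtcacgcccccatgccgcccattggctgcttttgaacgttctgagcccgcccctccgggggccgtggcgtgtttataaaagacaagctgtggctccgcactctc
ID2: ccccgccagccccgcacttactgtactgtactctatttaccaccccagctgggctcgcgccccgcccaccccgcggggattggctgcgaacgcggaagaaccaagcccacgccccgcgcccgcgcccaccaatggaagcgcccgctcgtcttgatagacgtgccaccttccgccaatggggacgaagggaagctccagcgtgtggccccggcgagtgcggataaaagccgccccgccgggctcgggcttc
ID3: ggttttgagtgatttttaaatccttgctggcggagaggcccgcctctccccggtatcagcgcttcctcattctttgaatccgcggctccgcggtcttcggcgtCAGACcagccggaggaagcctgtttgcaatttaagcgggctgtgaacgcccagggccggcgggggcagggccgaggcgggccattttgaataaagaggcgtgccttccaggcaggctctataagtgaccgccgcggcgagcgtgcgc
BAMBI: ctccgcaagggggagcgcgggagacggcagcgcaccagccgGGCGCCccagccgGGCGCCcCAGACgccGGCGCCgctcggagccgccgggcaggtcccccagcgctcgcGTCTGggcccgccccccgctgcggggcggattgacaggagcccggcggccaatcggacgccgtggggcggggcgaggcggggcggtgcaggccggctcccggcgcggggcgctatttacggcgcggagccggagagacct
The ID1 and ID2 windows held neither motif. Sites outside the 250 bases were not searched, so this does not show that either gene lacks such sites. The ID3 window held 1 CAGAC, from base -147 to -143, and the BAMBI window held 3 GGCGCC and 2 CAGAC, with no motif overlapping another. Of the 10 members 9 had a promoter entry, with 13 windows in all. GGCGCC was in 2 of the 13 windows, from BMP4 and BAMBI, and CAGAC in 7 of the 13, from ID3, ID4, SMAD7, BMP4 and BAMBI. Over all 35116 promoter windows of this length, 16.4% held GGCGCC and 38% held CAGAC.

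Values below are array intensities on a linear scale, already brought to a common trimmed mean of 500.065 to 500.095 when deposited. The median intensity of an array was 58.7 to 85.4. The 3′ to 5′ ratio of the actin control, which climbs as RNA degrades, was 3.34 in side population replicate a and 0.987 to 1.28 on the other arrays. The 18S ribosomal RNA control was high, at 22182.4 to 33704, on 6 sorted arrays. It was low on replicate d of the side population (851.2), on replicate c of the non-side population (563) and on both unsorted arrays (274.6 and 828.3). The epithelial markers EPCAM, KRT8, KRT18 and KRT19 read 12795.3 to 45091.6 on all arrays, while PTPRC, which marks blood cells, read 2.2 to 34.4. Of 3 genes linked to MKN 45, CEACAM5 read 1189.6 to 3374 on sorted arrays and 339.6 and 477 on unsorted ones, MET read 1334.3 to 3875.2 on sorted arrays and 1269.5 and 1218.5 on unsorted ones, and CEACAM6 read 8443.3 to 10115.9 on sorted arrays and 12208.3 and 12700.7 on unsorted ones. The 3 together summed to 12477.8 to 16003.6 in side population, 11397.6 to 16138.5 in non-side population and 13817.4 to 14396.2 in unsorted cells. The 6 fibroblast, blood and endothelial genes summed to 1335.3 to 2268.4 in side population and 1422.5 to 1773 in non-side population cells. In unsorted cells they summed to 1579.4 to 2276.8. Most of each sum came from COL1A1 at 1017.8 to 2010.4. PTPRC, COL1A2 and COL3A1 were under 74 on every array, while CD34 read 17 to 133.1 and PECAM1 52.8 to 200.8. The part of these markers and controls in the results was not tested.

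ID1, which blocks differentiation factors of the helix-loop-helix type and is the ID gene most used as a readout of BMP signals, had intensities of 2735.1, 2787.6, 7582.5 and 6325.7 in side population replicates a to d and of 7230.7, 4013.5, 3207.7 and 6465 in non-side population replicates a to d, against 19876 and 16636.4 in unsorted cells. All 8 sorted arrays lay below both unsorted arrays, and the sorted populations overlapped. The mean was 4858 ± 2475 in side population cells (SD, n = 4), 5229 ± 1923 in non-side population cells (SD, n = 4) and 18256 ± 2291 in unsorted cells (SD, n = 2). The log2 fold change against unsorted cells was -2.05 ± 0.43 (SE), or 0.241-fold, in side population cells and -1.87 ± 0.43, or 0.273-fold, in non-side population cells. These contrasts share the unsorted arrays. In bulk RNA, fewer cells with the transcript and less of it per cell cannot be told apart. ID1 stood at place 9 from the lowest of 9888 tested genes in the side population contrast and at place 15 in the non-side population contrast.

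The size of the ID1 difference varied with the side population arrays used. For replicates a and b it was -2.72 and for replicates c and d -1.39, which are also the only side population arrays labelled AGS. Without replicate a, the array with the raised actin ratio, it was -1.83. The non-side population arrays gave -1.75 for replicates a and b and -1.996 for replicates c and d. On the sorted arrays with a low 18S control, ID1 read 6325.7 (side population, replicate d) and 3207.7 (non-side population, replicate c). The unsorted arrays, both with a low 18S control, read 19876 and 16636.4. The part of the actin ratio and the 18S control in the ID1 difference was not tested.

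**Figure D1:**
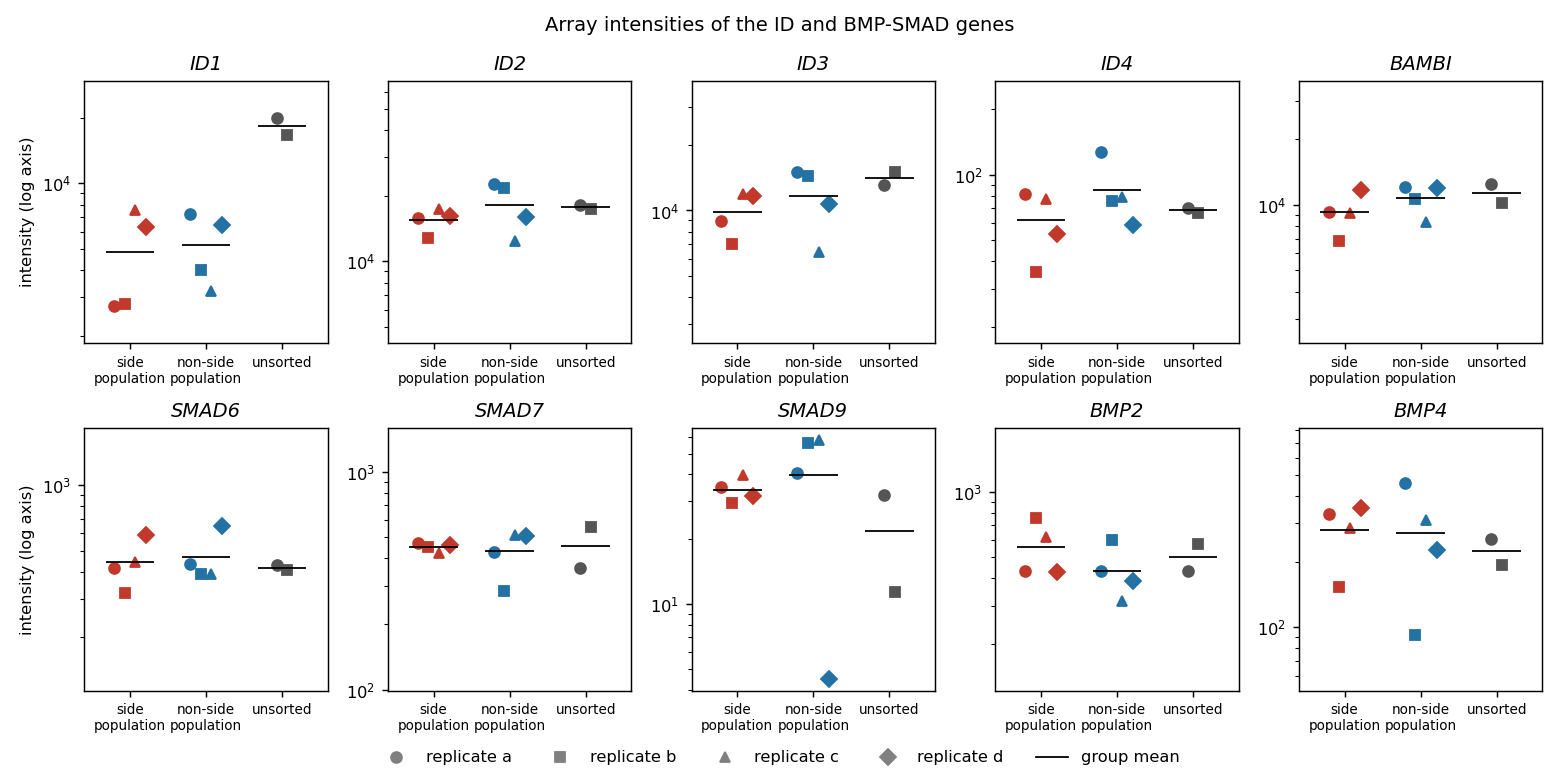
Intensity of the probe set that represents each gene (log axis, each panel with its own range) in side population (red), non-side population (blue) and unsorted cells (grey). Each array is 1 point, and a line marks the group mean of the intensities. ID1 lies between 2735.1 and 7582.5 on the sorted arrays, below 16636.4 and 19876 on the unsorted ones, while SMAD9 stays under 60.

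ID2, ID3 and BAMBI did not show such a gap. ID2, an ID family member that also binds E proteins, had intensities of 15901.8, 12817.6, 17370.2 and 16202.4 in side population cells and 22733.7, 21642.5, 12443.1 and 15951.7 in non-side population cells, against 18115.2 and 17404.4 in unsorted cells. All 4 side population arrays lay below the unsorted ones by a narrow margin, and the non-side population arrays lay on both sides of them. Its log2 fold change was -0.20 ± 0.26 for side population and -0.01 ± 0.26 for non-side population cells against unsorted cells. The second ID2 probe set, whose design lets it bind related transcripts, read 4059.1 to 8188.5 in side population cells and 5053.1 to 9479.2 in non-side population cells, against 5815.6 and 7640.3 in unsorted cells, and overlapped in each comparison.

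ID3, another ID gene that BMPs induce, had intensities of 8928.7, 6993.1, 11953.3 and 11637.5 in side population cells and 14977.7, 14357.9, 6434.3 and 10699.6 in non-side population cells, against 13151.9 and 14943.4 in unsorted cells. The side population arrays were again below both unsorted arrays, and the non-side population arrays overlapped them. Its log2 fold change against unsorted cells was -0.54 ± 0.33 in side population cells and -0.35 ± 0.33 in non-side population cells. BAMBI, a receptor-like protein without a kinase domain that blocks BMP and TGF-beta receptors, had intensities of 9282.7, 6844.8, 9172.1 and 11653.5 in side population cells and 12082.4, 10627.4, 8365.9 and 11888.2 in non-side population cells, against 12492.6 and 10228.6 in unsorted cells. The BAMBI groups overlapped, with log2 fold changes against unsorted cells of -0.32 ± 0.25 for the side population and -0.09 ± 0.25 for the non-side population.

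The inhibitory SMADs differed little between the groups. SMAD7, which blocks receptors and recruits ubiquitin ligases to them, read 471.8, 452.2, 424.9 and 462.4 in side population cells and 429.3, 282.9, 512.8 and 506.3 in non-side population cells, against 362.2 and 554.6 in unsorted cells. The side population arrays lay within the range of the unsorted ones. SMAD6, which acts mainly on BMP receptors and SMAD1, read 415.8, 320.5, 441.6 and 588.8 in side population cells and 435.8, 391.7, 391.1 and 649.2 in non-side population cells, against 427.7 and 406 in unsorted cells. Replicate d was the highest array of each sorted population. The log2 fold changes against unsorted cells were 0.05 ± 0.30 for SMAD6 and 0.01 ± 0.30 for SMAD7 in side population cells, and 0.13 ± 0.30 and -0.09 ± 0.30 for the same genes in non-side population cells. The other 3 SMAD6 probe sets read 2.4 to 170.4.

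Of the ligands, BMP4 read 330.5, 153, 286.5 and 351.2 in side population cells and 457.1, 91.9, 312.2 and 226.5 in non-side population cells, against 253.2 and 192.8 in unsorted cells. Replicate b was the lowest of each sorted population, and the groups overlapped. BMP2 had a pair of probe sets that differed. The one that represents the gene read 432.7, 758.5, 618.6 and 427.7 in side population cells and 432.6, 599.8, 315.1 and 387.3 in non-side population cells, against 434.4 and 572.9 in unsorted cells, with overlap throughout. The other read 475.2, 544.7, 473.3 and 389.9 in side population cells and 295.6, 298, 337.2 and 343.5 in non-side population cells, against 557.3 and 508.9 in unsorted cells. By this probe set every side population array lay above every non-side population array, while the non-side population lay below unsorted cells, as 16.2% of probe sets did without overlap. With each probe set tested on its own by limma, the BMP2 difference between side and non-side population cells was 0.55 ± 0.20 (SE) on the log2 scale and did not pass (adjusted p = 0.986), where 0.881% of 20549 probe sets were higher in the side population without overlap. The 2 BMP2 probe sets correlated over the 8 sorted arrays with Pearson's r = 0.513 as a description.

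ID4 and SMAD9 did not reach the intensity of 149 that genes needed to be tested. SMAD9, the third BMP-specific signal SMAD, read 29.6 to 39.8 in side population cells and 4.5 to 57.8 in non-side population cells, against 32.2 and 11.4 in unsorted cells. Of 5 ID4 probe sets, the one that represents the gene read 35.7 to 81.9 in side population cells and 59 to 126.6 in non-side population cells, against 70.2 and 66.8 in unsorted cells. At such intensities a difference was not measurable with any precision, which does not show that either gene was silent.

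Against unsorted cells, 1 of 8 tested members, ID1, was called lower in side population cells and 1, again ID1, in non-side population cells. A call means an adjusted p under 0.05 in limma over all 9888 tested genes. In the side population contrast 2.35% of all tested genes were called and 0.536% called lower, in the non-side population contrast 3.52% and 1.15%, and nothing is read from these counts because the choice of ID1 rests on them. In side population cells 3 members, ID1, ID2 and ID3, lay below unsorted cells without overlap, as did 15.4% of tested genes, and in non-side population cells 1 member, ID1, did, as did 16.3%. The median log2 fold change of the 8 members was -0.09 for the side population (0.04 over all tested genes) and -0.09 for the non-side population (-0.01 over all tested genes).

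**Figure D2:**
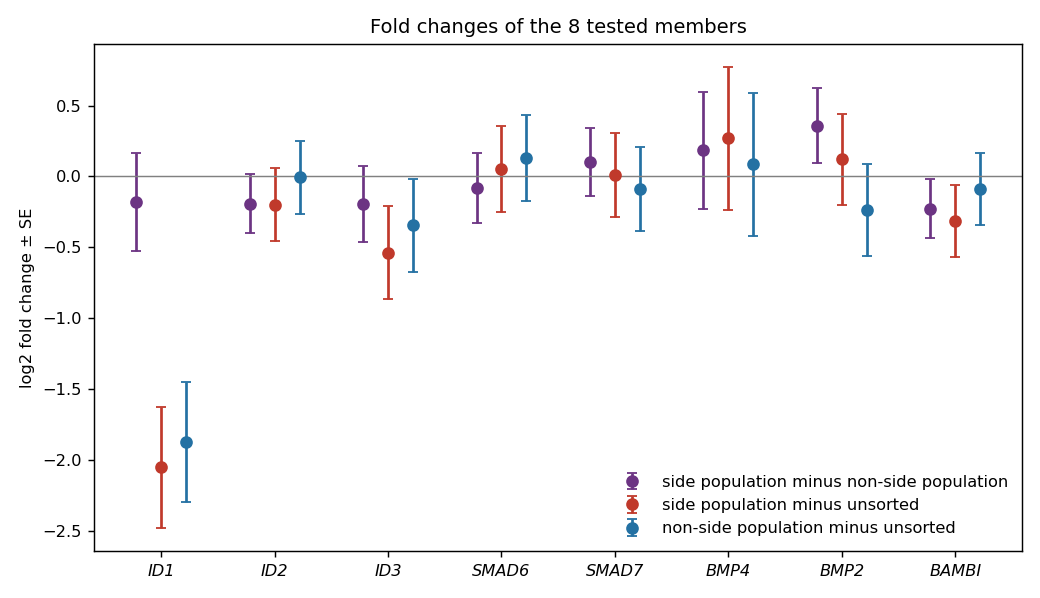
Log2 fold change with its standard error for the 8 tested members in side population minus non-side population (purple, n = 4 and 4), side population minus unsorted (red, n = 4 and 2) and non-side population minus unsorted cells (blue, n = 4 and 2). ID1 lies near -2 against unsorted cells, and no member departs from 0 by more than 0.36 between the sorted populations.

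By the probe set that represents each gene, side population and non-side population cells did not differ beyond the spread between arrays in any tested member. Limma called 0 of 8, as it called 0% of 9888 genes. By these probe sets 0 of 8 members but 430 genes (4.35%) had an unadjusted p under 0.05. The other BMP2 probe set, tested on its own without overlap of the populations, had an unadjusted limma p of 0.0181 and did not pass. The log2 fold change was -0.18 ± 0.35 for ID1, -0.19 ± 0.21 for ID2, -0.19 ± 0.27 for ID3 and -0.23 ± 0.21 for BAMBI. It was -0.08 ± 0.25 for SMAD6, 0.10 ± 0.24 for SMAD7, 0.18 ± 0.41 for BMP4 and 0.36 ± 0.26 for BMP2. The limma adjusted p was 0.997 for BMP2 and 1.00 for the other members. With standard errors of 0.21 to 0.41, moderate differences would not have been detected. The median was -0.13, against 0.04 over all genes.

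The pooled values of the ID genes joined arrays that differed in opposite directions. In replicates a and b, ID1, ID2 and ID3 were lower in the side population array than in the non-side population array of the same letter, and in replicate c they were higher. For ID3 the log2 difference was -0.75 in replicate a, -1.04 in replicate b, 0.89 in replicate c and 0.12 in replicate d. For ID2 it was -0.52, -0.76, 0.48 and 0.02 in the same order, and for ID1 -1.40, -0.52, 1.24 and -0.03. BAMBI gave -0.38, -0.63, 0.13 and -0.03, with less spread than ID1 or ID3. The letters are not known to mark a shared sort. The division into a and b against c and d was taken from earlier results, where it was chosen because it called many genes. The p-values that follow may therefore understate the error. They are given as a description of that split and do not test it.

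For replicates a and b alone, limma called ID3 lower in side population cells at -0.89 ± 0.25 (SE, adjusted p = 0.0437), which made 1 of 8 members where 2.03% of tested genes were called lower and 9.15% either way. ID2 at -0.64 ± 0.21 (adjusted p = 0.0722), ID1 at -0.96 ± 0.32 (adjusted p = 0.0738) and BAMBI at -0.51 ± 0.25 (adjusted p = 0.178) did not pass in limma. The ID3 call was lost without any 1 of the 4 arrays, with adjusted p between 0.0951 and 0.154. Its value over the 4 omissions ran from -1.07 to -0.72. These side population arrays are the ones whose source label names no line, so that label and the population cannot be told apart here.

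Within letters c and d the same genes were positive, ID1 at 0.60 ± 0.32, ID3 at 0.51 ± 0.25 and ID2 at 0.25 ± 0.21, and limma called 0 of 8 members and 0% of all genes (4.42% had an unadjusted p under 0.05). Without non-side population replicate c, 1 of the arrays with a low 18S control, the values were 0.10 for ID1, 0.14 for ID3 and 0.07 for ID2. The difference between the letter pairs was -1.57 ± 0.46 for ID1, -1.40 ± 0.35 for ID3 and -0.89 ± 0.30 for ID2, and did not pass in limma (adjusted p = 0.104 for ID1, 0.0998 for ID3 and 0.119 for ID2). Of all tested genes 0% passed that test, while 26.9% had an unadjusted p under 0.05.

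**Figure D3:**
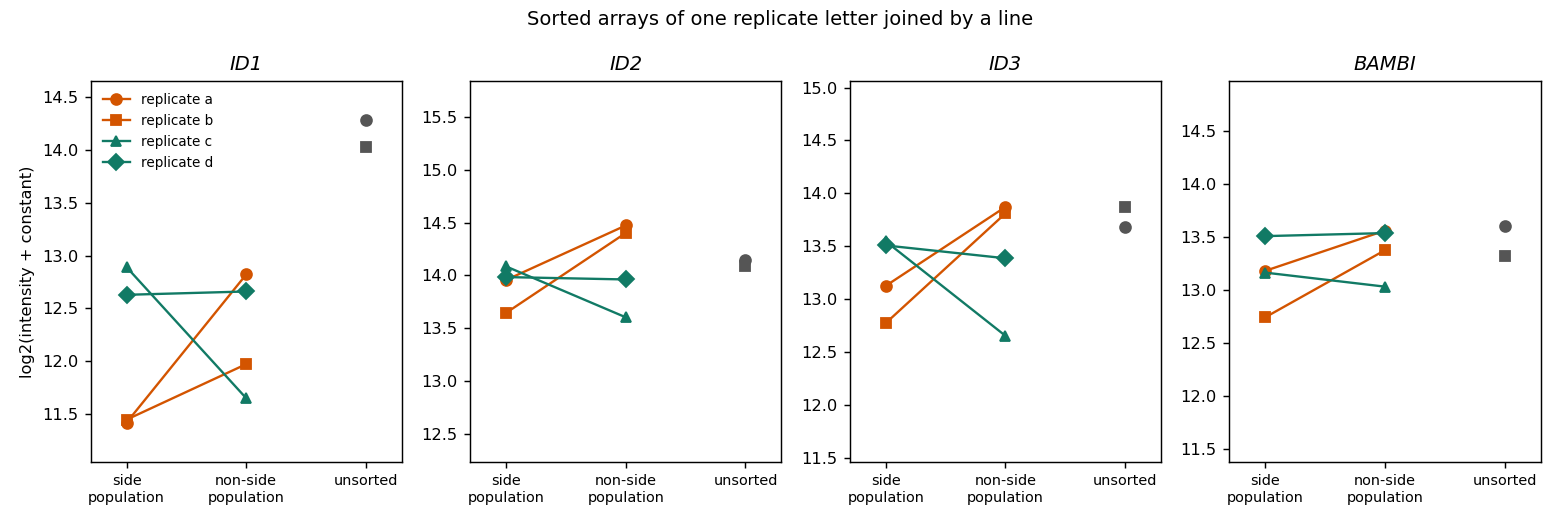
Log2 intensity of ID1, ID2, ID3 and BAMBI per array, with a line from the side population to the non-side population array of the same replicate letter and unsorted arrays in grey. Lines for a and b (orange) run upward for the 4 genes, replicate c (green triangles) runs downward, and replicate d is nearly level.

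ID2 and ID3 followed each other closely over the 8 sorted arrays. Both were highest in non-side population replicates a and b and lowest in non-side population replicate c and side population replicate b. Pearson's r was 0.957 (exact permutation p = 0.00067, two-sided, 0.00201 after Benjamini-Hochberg adjustment over 3 pairs of ID genes). Spearman's rho was 1, with the smallest p that the permutations can give (exact permutation p = 4.96e-05, 0.000149 adjusted). For each pair of ID genes the permutations treated the 8 arrays as exchangeable across populations and letters, so the p-values may be too small. Without the 2 arrays farthest from the median of ID2, non-side population replicates a and b, r was 0.957. With quantile normalization, a setting added after the data were seen, r was 0.84 and rho 0.905. The second ID2 probe set gave r = 0.853 with ID3, and 0.779 with quantile normalization. Each pair of letters holds 4 sorted arrays, too few for a correlation of its own. Among the other tested genes, 12 (0.121%) had an r with ID3 at least as high as that of ID2.

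The other pairs of ID genes did not pass, and the difference between the correlations was not tested. Over the 8 sorted arrays ID1 and ID3 had r = 0.72 (exact permutation p = 0.0557, 0.0836 adjusted) and rho = 0.69 (exact permutation p = 0.0694), and r was 0.599 without side population replicates a and b. With quantile normalization r was 0.777, close to the 0.84 and 0.779 of the ID2 probe sets with ID3. ID1 and ID2 had r = 0.551 (exact permutation p = 0.167) and rho = 0.69, and r was 0.415 without the same arrays, and 0.58 with quantile normalization.

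**Figure D4:**
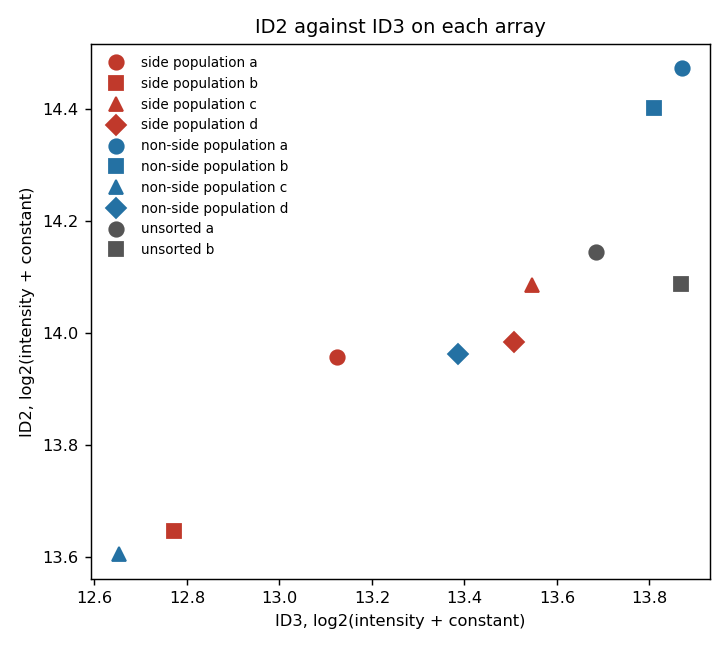
ID2 against ID3 on each of the 10 arrays, both as log2 of the intensity plus the constant 6.1. The 8 sorted arrays keep the same order on both axes (r = 0.957), and the unsorted arrays lie to the right of that line.

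Over all 10 arrays, as a description of log2 values that the sorted to unsorted gap dominates, the tested genes most like ID1 by Pearson's r were DNAJC17 and TIMM22 (r = 0.957 each), CSTF2 (r = 0.943), ARPC1B (r = 0.94) and UBE2A (r = 0.94). Among the members the r with ID1 was 0.706 for ID3, 0.636 for BAMBI, 0.434 for ID2, 0.263 for SMAD6 and 0.112 for BMP4, and 0.01 and -0.01 for SMAD7 and BMP2. TIMM22, a protein of the mitochondrial inner membrane import machinery, read 497 to 769.9 in side population cells and 541.9 to 640.9 in non-side population cells, against 1030.7 and 1011.4 in unsorted cells. UBE2A, a ubiquitin-conjugating enzyme, read 6628.1 to 10734.8 in side population cells and 7783.9 to 10180.9 in non-side population cells, against 12154.2 and 11790.1 in unsorted cells. Their sorted to unsorted gap was smaller than that of ID1.

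The rest of the route was read from a list of 76 other BMP and TGF-beta genes, of which 71 were measured and 31 bright enough to be tested. Between side population and non-side population cells limma called 0 of the 31, and 24 were positive and 7 negative, with a median of 0.23 against 0.04 over all genes. All 5 signal SMADs were positive, from 0.09 for SMAD1 to 0.41 ± 0.23 for SMAD2, which carries TGF-beta and activin signals, and none passed (adjusted p = 0.997 for SMAD2 in limma). TGFB1 was the only 1 of 16 measured ligands bright enough to be tested, at -0.02 ± 0.44. SMAD5, a BMP signal SMAD, was at 0.32 ± 0.21. SKIL, which represses SMAD targets, was at -0.33 ± 0.22 and TCF3 at 0.35 ± 0.22.

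Against unsorted cells, 2 of the 31 passed in limma in side population cells, both higher, where 1.81% of all tested genes were called higher. The same 2 genes passed in non-side population cells, both higher, where 2.37% of genes were called higher. The list was chosen with earlier results of these arrays known. The p-values of its genes against unsorted cells may therefore understate the error. TCF12, an E protein that ID proteins bind, read 1663.6, 2059.3, 1951 and 1490.2 in side population cells and 1501.2, 1490.3, 1824.9 and 1688.8 in non-side population cells, against 696.1 and 750.3 in unsorted cells. Every sorted array was above both unsorted arrays. TCF12 rose by 1.29 ± 0.24 in side population cells (SE, limma, adjusted p = 0.0122) and by 1.16 ± 0.24 in non-side population cells (limma, adjusted p = 0.0171) on the log2 scale. Side population cells of the AGS label alone gave 1.23 (adjusted p = 0.0595 in limma).

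ACVR2B, a type II receptor for activins and some BMPs, read 805.5, 561.8, 487.1 and 355.6 in side population cells and 479.7, 272.1, 430 and 513.7 in non-side population cells, against 120.9 and 188.6 in unsorted cells. It rose by 1.77 ± 0.36 in side population cells (SE, limma, adjusted p = 0.0225) and by 1.41 ± 0.36 in non-side population cells (limma, adjusted p = 0.0437). The side population call was lost with AGS-labelled arrays (limma, adjusted p = 0.108) and without side population replicate a (0.0563). The non-side population call was lost without a filter (limma, adjusted p = 0.0725), with quantile normalization (0.0637) and with 2 groups (0.0654). ACVR2B kept an adjusted p under 0.05 in limma in 16 of 21 alternatives for the side population and 9 of 21 for the non-side population. Its second probe set, at a mean intensity of 197, gave 0.18 and 0.12 for the same contrasts, and the third, at a mean intensity of 59.3, gave -0.64 and -0.90, so the probe sets of ACVR2B differ in sign. Leaving out an unsorted array leaves 1 in that group, where a call cannot be judged, so only sizes are given (side population first). ACVR2B was at 1.46 and 1.10 without unsorted replicate a, and at 2.08 and 1.72 without unsorted replicate b. TCF12 stayed higher in 22 of 22 alternatives of each contrast. Its values ran from 0.83 to 1.37 (side population) and from 0.95 to 1.27 (non-side population). With the mean of all probe sets of a gene neither TCF12 nor ACVR2B passed, at 0.83 and 0.95 for TCF12 and 0.44 and 0.21 for ACVR2B.

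The other E proteins did not pass. TCF4 read 175.6 to 373.7 in side population cells and 306.1 to 489.1 in non-side population cells, against 695.6 and 553.3 in unsorted cells, a log2 fold change of -1.06 ± 0.33 (limma, adjusted p = 0.108) in side population cells and -0.71 ± 0.33 (adjusted p = 0.253) in non-side population cells. TCF3 was at 0.73 ± 0.26 in side population cells (limma, adjusted p = 0.158). So the 3 tested partners of ID proteins differed in sign. RGMB, a BMP co-receptor, read 545 to 1495.2 in side population cells and 564.4 to 916.9 in non-side population cells, against 288 and 386 in unsorted cells, and did not pass at 1.36 ± 0.38 (limma, adjusted p = 0.0744) and 1.11 ± 0.38 (adjusted p = 0.123). TGFBR3, which presents TGF-beta to its receptors, read 881.2 to 1207.8 in side population cells and 738.3 to 1097.2 in non-side population cells, against 1585.8 and 1830.7 in unsorted cells, at -0.73 ± 0.25 (limma, adjusted p = 0.141) and -0.92 ± 0.25 (adjusted p = 0.0567).

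Among the listed BMP and TGF-beta targets, MSX2, a homeobox gene, was at -0.35 ± 0.23 for the side population and -0.61 ± 0.23 for the non-side population against unsorted cells. HEY1, a repressor that BMP and Notch signals both induce, was at 0.86 ± 0.31 and 0.85 ± 0.31. TGIF1, a SMAD corepressor, was at -0.65 ± 0.25 and -0.59 ± 0.25. None of the 3 passed in limma (adjusted p between 0.144 and 0.457). The MSX2 probe set, like that of TCF3, has a design that lets it bind related transcripts.

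**Figure D5:**
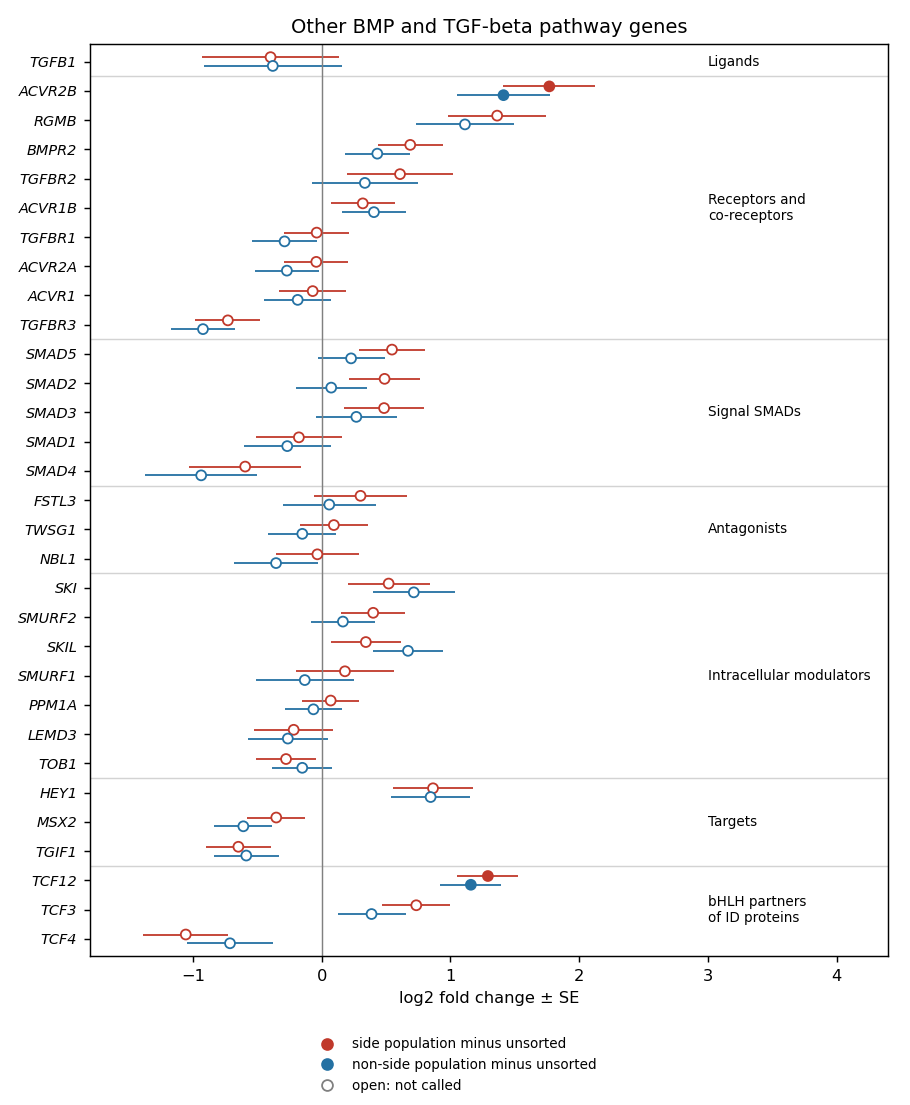
Log2 fold change with its standard error of the 31 other tested BMP and TGF-beta genes, by role, in side population minus unsorted (red) and non-side population minus unsorted cells (blue). Filled points were called by limma, which are TCF12 and ACVR2B in both contrasts.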

How the data were processed

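The deposited values were intensities, 54675 probe sets on each of 10 single-colour arrays, brought to a common trimmed mean by the authors (2% left out at each end). GCOS 1.4 is named per the submitters' processing notes, and its settings are not given in the sources used here. From the intensities, log2(intensity + 6.1) was computed, where 6.1 is the 10th percentile of all values, so fold changes of dim genes are understated. A gene was represented by its single-symbol probe set of highest mean log2 value, and the 9888 genes at or above the median of these means, an intensity of 149, were tested. Groups were compared in R 4.3.3 with the package limma 3.58.1 (functions lmFit, contrasts.fit and eBayes, the last with a trend) in 1 fit of 3 groups without covariates, with Benjamini-Hochberg adjustment over all tested genes and a call at an adjusted p under 0.05. The fit was tested on simulated data.

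The members and gene lists were chosen with earlier results of these data known. All members were named. Of the pathway list the called genes and, by smallest p, up to 4 others per contrast were named, with further ones given for their role after their values were seen. The genes most like ID1 are the 5 of highest Pearson's r. Alternatives were other constants (1 and 32), filters, quantile normalization, probe set choices, fewer groups or arrays, the letters a and b or c and d alone, the letter as a block, and each array left out. Sample titles give side and non-side population arrays of a letter the same replicate group name, without saying what it marks. Same-letter arrays did not all correlate above 0.1, the rule set for treating letters as pairs. The r of deviations was 0.21, 0.50, -0.12 and 0.36 for letters a to d, and -0.48 to 0.43 in 12 pairs of other letters. Letters were therefore not treated as pairs in the main fit, which does not exclude a pairing. The number of arrays limits the precision, and 0 pairs of arrays held identical values. Promoters are those of RefSeq, GRCh38.p14.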

Additional observations from a re-analysis of the deposited data

Results flagged for a closer look

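In 2 of 40 checks of a member probe set within a group of 4 arrays, 1 array stood apart by more than Dixon's critical value for 4 samples, and chance gives about 5% of such checks. For 1 dim ID4 probe set, side population replicate c read 23.7 against 2.2 to 4.1 in the other side population arrays (gap over range 0.839). For 1 dim SMAD6 probe set, side population replicate d read 85.0 against 46.7 to 50.6 in the other side population arrays (gap over range 0.869). In the non-side population the same SMAD6 probe set was also highest in replicate d, at 170.4. Neither probe set represents its gene in the tests.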

How the results depend on the processing

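The ID1 difference from unsorted cells kept its sign in 22 of 22 alternatives in each contrast, from -2.72 to -1.39 in side population cells and -2.06 to -1.67 in non-side population cells. The choice of ID1 rests on these contrasts, so its signs and the counts of members below describe the processing and do not support the difference. Leaving out 1 sorted array gave 0 to 1 called members in side population cells, with 0 without side population replicate a or b. In non-side population cells it gave 1. Without 1 unsorted array each contrast rests on the other unsorted array, where a call cannot be judged. In side population against unsorted cells the count of members was 0 with AGS-labelled arrays, where 94 of 9888 genes were called. It was 2 in letters a and b, where 1359 genes were called, against 232 in the main fit. In non-side population cells it was 1 in both, where 381 and 2198 genes were called, against 348 in the main fit. Between the sorted populations 1 member was called in letters a and b, where 905 genes (9.15%) were called. With the replicate letter as a block, 0 members and 0 genes were called there (smallest adjusted p 0.186) and ID1 stayed at -0.18.

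Of the sorted contrast, fold changes turned sign, none called, in letters c and d for ID1 (0.60), ID2 (0.25), ID3 (0.51), SMAD6 (0.017), BAMBI (0.052), SMAD7 (-0.20), ACVR2B (-0.17) and TCF12 (-0.042), and with AGS arrays for ID1 (0.48), ID3 (0.10) and SMAD6 (0.16). With 1 array left out they ran from -0.44 to 0.046 for ID1, -0.23 to 0.088 for SMAD6, -0.088 to 0.19 for SMAD7 and -0.25 to 0.50 for BMP4. TCF12 was at -0.13 with the mean of all probe sets.

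Pathway genes called higher in side population against unsorted cells were 1 with the 75th percentile filter, 0 with mean probe sets or AGS arrays, 4 in letters a and b and 0 to 2 with 1 array left out. In non-side population cells they were 1 with a constant of 32, no filter, the stricter filter, quantile normalization, mean probe sets or 2 groups, 4 over single probe sets, 6 in letters c and d and 0 to 2 with 1 array left out. Called lower in side population cells were 2 (letters a and b) and 1 (c and d). In non-side population cells they were 1 (single or mean probe sets), 3 (letters a and b) and 2 (c and d). Calls over all tested genes, either way, moved too. Side population cells gave 232 of 9888 in the main fit and 100 of 4944 with the 75th percentile filter. They gave 144 with mean probe sets, 94 with AGS arrays, 1359 in letters a and b and 840 in c and d. Non-side population cells gave 348 of 9888 in the main fit, 334 with a constant of 32 and 308 of 19775 without a filter. They gave 144 of 4944 with the stricter filter, 303 with quantile normalization, 321 with mean probe sets and 196 with 2 groups. Single probe sets gave 736 of 20549, letters a and b 2198 and letters c and d 1179. Between the sorted populations 1 pathway gene was called higher in letters a and b, where 905 genes were called either way. The cause was not tested. ID4 and SMAD9 were too dim to be tested, and 2 unsorted arrays limit each contrast with them.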

Other observations

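1 further probe set is annotated to both ID2 and its pseudogene ID2B and was left out of the members. It read 2911.9, 1776.6, 2574.2 and 2294.2 in side population cells and 1380.6, 2189.3, 2576.7 and 2852.1 in non-side population cells, against 2242.4 and 2349.8 in unsorted cells. Its lowest array, non-side population replicate a, was the highest for the main ID2 probe set at 22733.7.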
